A study of Danio rerio with 9 samples.

Results

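Of the 103079 assembled transcripts with a deposited value, 30 were high in embryonic heart and near 0 in both adult tissue types. Each of the 30 was above 10 FPKM in all 3 embryonic heart samples and below 0.5 FPKM in all 3 adult heart and all 3 adult muscle samples. FPKM is the number of sequenced fragments assigned to a transcript, scaled by the length of the transcript and the depth of the sample. The transcripts were thus selected on their measured FPKM in all 9 samples. The long intergenic noncoding RNAs (lincRNAs) catalogued by the study were left out, which removed 1 transcript, TCONS_00045191. The embryonic hearts came from zebrafish aged 4 days, the adult hearts from fish aged 6 months, and the muscle from adult fish of unstated age in months. All fish were labelled wild type (strain WIK by the study's methods), and the labels name no treatment. The labels do not say whether hearts were pooled, whether adult heart and muscle came from the same fish, or that samples of a tissue type came from separate animals, so spread and p-values cover these samples only. The word restricted refers to these 3 tissue types, since no other tissue was measured.

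At this embryonic age the zebrafish heart already beats and pumps blood, with an atrium and a ventricle joined by a valve, and it is still growing and maturing. In vertebrates, the change to the adult heart includes replacement of embryonic forms of contractile and metabolic proteins by adult forms. The adult forms are often encoded by separate genes or produced as separate isoforms. A dissected heart also holds endocardium, epicardium, valve cells, and blood. In the blood, embryonic oxygen transport proteins are likewise replaced by adult forms. The values here belong to assembled transcripts rather than genes, so that isoforms of a gene have separate values, and the fragments that overlapping isoforms share are divided among them by estimation. The transcripts carry assembly numbers without gene names, so that their products, their lengths, and tissue markers were not looked up, and no transcript is assigned to a cell type. In such whole-tissue RNA, fewer cells of a type and less RNA per cell cannot be told apart.

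The relative depth of the samples, estimated from the spacing of low values and expressed against adult heart replicate 0, was between 0.919 and 1.16 in embryonic heart, between 1 and 1.52 in adult heart, and between 0.814 and 1.08 in adult muscle. The deepest sample was thus estimated at 1.87 times the shallowest. Median-ratio factors over the 11360 transcripts above 1 FPKM in all samples lay between 0.956 and 1.05, so that these transcripts were on a nearly common scale. The factors do not cover transcripts near 0 in a tissue type. In embryonic heart replicates 0, 1, and 2, the 10 highest entries held 84.2%, 93.6%, and 95.3% of the summed FPKM.

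A transcript above 10 FPKM in every embryonic heart sample was usually also present in adult tissue. There were 3616 such transcripts, and the 30 restricted transcripts made up 0.830% of them. Leaving out the study's lincRNAs, 85.7% of these transcripts (3066) reached 10 FPKM in at least 1 adult sample, and 310 had their highest adult value between 5 and 10 FPKM. The numbers then fell to 99 between 2 and 5 FPKM, 47 between 1 and 2 FPKM, 24 between 0.5 and 1 FPKM, 19 between 0.1 and 0.5 FPKM, and 11 below 0.1 FPKM. The restricted transcripts were the last 19 and 11, at the end of a distribution without a gap at the threshold. With the same thresholds mirrored, 21 transcripts were restricted to adult heart and 224 to adult muscle.

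**Figure D1:**
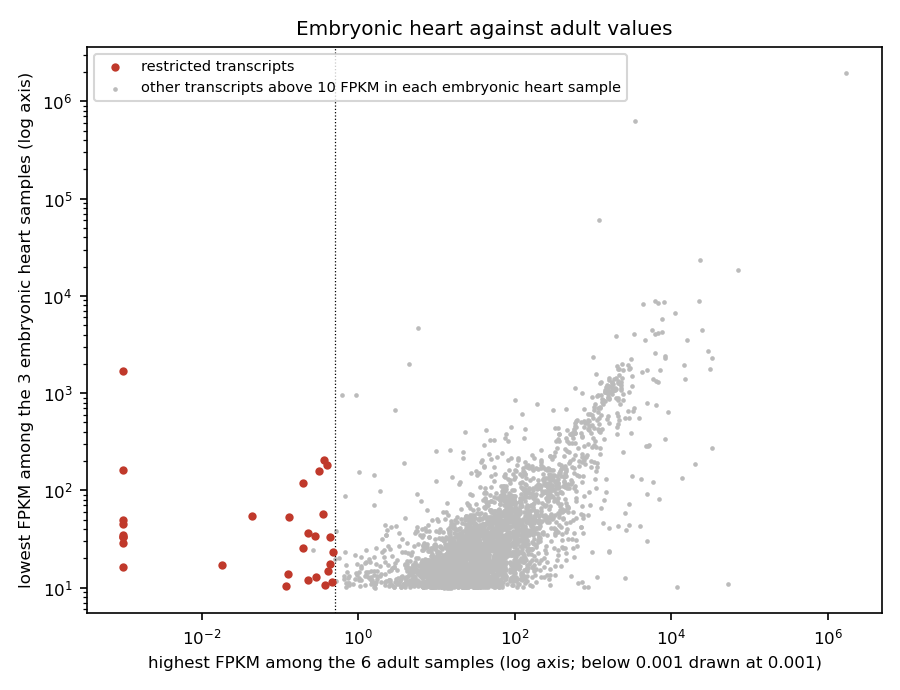
Each point is a transcript above 10 FPKM in all 3 embryonic heart samples, with its lowest embryonic heart value (vertical log axis, FPKM) against its highest value among the 6 adult samples (horizontal log axis, FPKM, with values below 0.001 drawn at 0.001). Red points are the 30 restricted transcripts left of the dotted line at 0.5 FPKM, and grey points are the others, which crowd at adult values above 10 FPKM.

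The levels that chose the transcripts were spread widely in embryonic heart. The lowest mean was 12.6 FPKM and the highest 1802 FPKM, around a median of 51.9 FPKM. Of the 30 means, 6 were above 100 FPKM and 8 below 30 FPKM. TCONS_00079790 alone held 40.9% of the summed means of the 30, and the 6 highest together held 76.6%. In adult heart the means ran between 0 and 0.291 FPKM (median 0.00784), and in adult muscle between 0 and 0.272 FPKM (median 0.0660). The lowest embryonic heart value was 25.1 times the highest adult value for TCONS_00055409, the smallest such ratio of the 28 transcripts that had one. For 19 of the 28 the ratio was above 100. Since these values served to choose the transcripts, they are given as a description without a test.

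**Figure D2:**
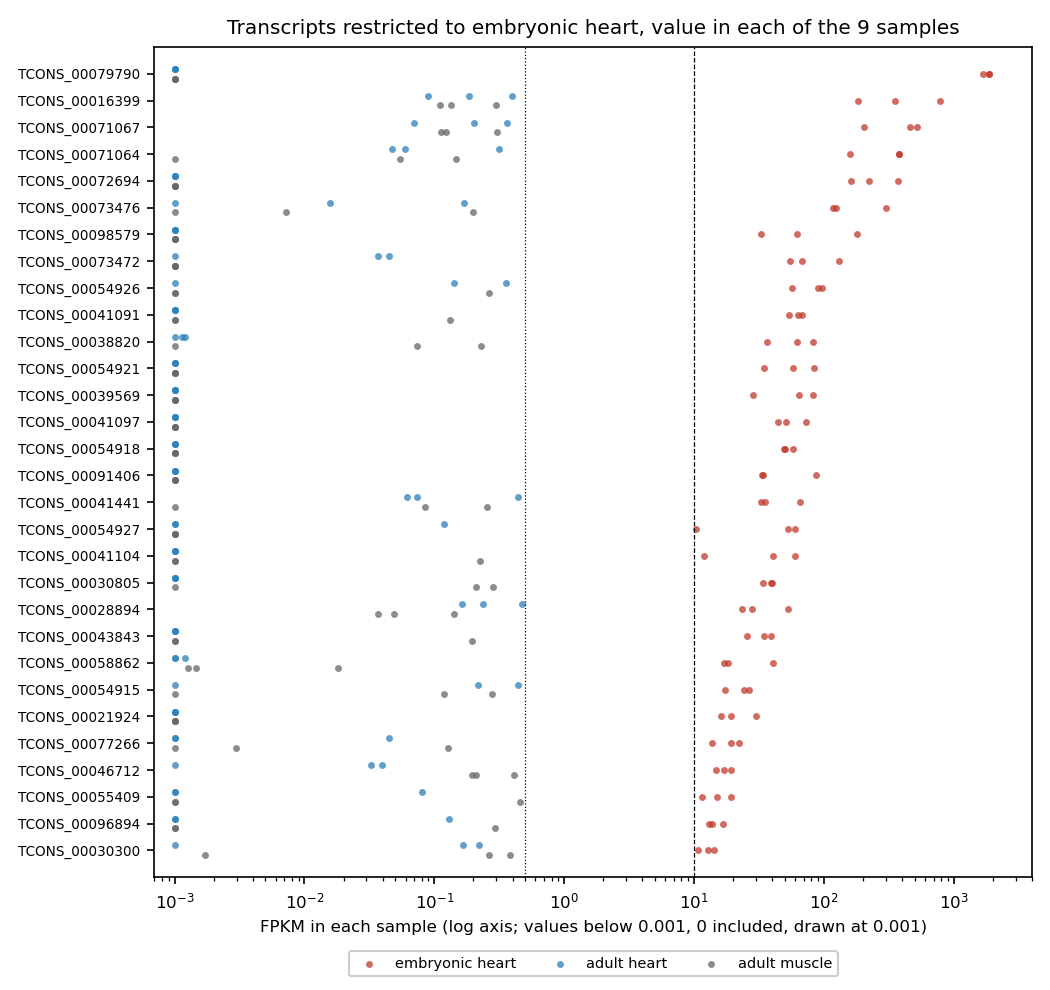
FPKM of the 30 restricted transcripts in each of the 9 samples (log axis, with values below 0.001, including 0, drawn at 0.001), ordered by their mean in embryonic heart. Red points are embryonic heart, blue points adult heart, and grey points adult muscle, with the dashed line at 10 FPKM and the dotted line at 0.5 FPKM. Embryonic heart means run from 1802 FPKM at the top to 12.6 FPKM at the bottom, and many adult points lie at the floor.

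TCONS_00079790 was by far the highest of the 30. It was at 1850.3, 1680.2, and 1876 FPKM in embryonic heart replicates 0, 1, and 2, with a mean of 1802 ± 107 FPKM (SD, n = 3), and it was listed at exactly 0 in all 3 adult heart and all 3 adult muscle samples. The SD of its embryonic heart values was 5.91% of their mean (the coefficient of variation), the smallest of the 30. TCONS_00016399 followed with 786, 354, and 183 FPKM in embryonic heart, against 0.396, 0.0897, and 0.186 FPKM in adult heart and 0.299, 0.110, and 0.134 FPKM in adult muscle. Its level in embryonic heart was thus far less even (441 ± 311 FPKM), and it kept a low value above 0 in all 6 adult samples, where adult heart and adult muscle overlapped.

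TCONS_00071067 and TCONS_00071064 have numbers that differ by 3 and resembled each other across the embryonic heart samples, but not across the adult samples. TCONS_00071067 had 525, 205, and 459 FPKM in embryonic heart, against 0.364, 0.0699, and 0.201 FPKM in adult heart and 0.113, 0.123, and 0.304 FPKM in adult muscle. TCONS_00071064 had 376, 158, and 375 FPKM in embryonic heart, against 0.0590, 0.0470, and 0.314 FPKM in adult heart and 0.0544, below 0.001, and 0.147 FPKM in adult muscle. In both, embryonic heart replicate 1 was the low sample and the adult tissue types overlapped. Their embryonic heart means were 397 ± 169 and 303 ± 125 FPKM (SD, n = 3 each).

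TCONS_00072694 had 372, 162, and 221 FPKM in embryonic heart (252 ± 108 FPKM), against values below 0.001 FPKM in all 3 adult heart samples and 0 in all 3 adult muscle samples. TCONS_00073476 had 303, 118, and 125 FPKM in embryonic heart (182 ± 105 FPKM), against below 0.001, 0.0159, and 0.170 FPKM in adult heart and 0.197, below 0.001, and 0.00716 FPKM in adult muscle. These 6 transcripts are the ones above 100 FPKM, and in 5 of them replicate 0 was the highest of the embryonic heart samples. The exception was TCONS_00079790, whose highest sample was replicate 2.

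The next 4 by mean were TCONS_00098579, TCONS_00073472, TCONS_00054926, and TCONS_00041091. TCONS_00098579 had 180.4, 62.3, and 32.9 FPKM in embryonic heart and stayed below 0.001 FPKM in every adult sample. TCONS_00073472 had 130.1, 54.6, and 67.4 FPKM in embryonic heart, against 0, 0.0445, and 0.0369 FPKM in adult heart and 0 in all 3 adult muscle samples. In these 2 transcripts replicate 0 stood well above the other embryonic heart samples, by a factor of 3.79 over their mean for TCONS_00098579 and of 2.13 for TCONS_00073472. TCONS_00054926 had 96.6, 89.3, and 56.6 FPKM in embryonic heart, against below 0.001, 0.358, and 0.142 FPKM in adult heart and 0.265 FPKM in adult muscle replicate 0, with the other muscle samples below 0.001 FPKM. TCONS_00041091 had 68.2, 53.6, and 63.5 FPKM in embryonic heart, against below 0.001 FPKM in every adult heart sample and 0.133 FPKM in adult muscle replicate 1, with the other muscle samples below 0.001 FPKM. For both, the adult values ranged over several orders of magnitude within a tissue type.

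The remaining 20 transcripts had embryonic heart means between 12.6 and 60.4 FPKM. TCONS_00039569 was the other transcript at exactly 0 in all 6 adult samples, and it had 64.1, 28.6, and 81.8 FPKM in embryonic heart. TCONS_00054918 had 49.7, 58.2, and 49.3 FPKM, and TCONS_00030805 had 39.8, 38.8, and 33.9 FPKM, in embryonic heart. After TCONS_00079790 these were the most even of the 30, with coefficients of variation of 8.50% for TCONS_00030805 and 9.50% for TCONS_00054918. TCONS_00054918 stayed below 0.001 FPKM in every adult sample, whereas TCONS_00030805 did so in adult heart and reached 0.208 and 0.284 FPKM in 2 of the 3 adult muscle samples. At the other end, TCONS_00098579 had the largest coefficient of variation (85%), followed by TCONS_00016399 (70.4%) and TCONS_00054927 (65.4%).

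Several transcripts sat close to a threshold on either side. TCONS_00054927 passed the upper threshold narrowly, with 60.2, 53.1, and 10.4 FPKM in embryonic heart, as did TCONS_00030300 (lowest embryonic heart value 10.8 FPKM) and TCONS_00055409 (lowest 11.5 FPKM). Just outside were TCONS_00058403, TCONS_00043836, and TCONS_00016307, with a lowest embryonic heart value of 9.97, 9.74, and 9.62 FPKM and with 0.131 FPKM as the highest adult value among them. They differ from the restricted transcripts beside them by less than the spread among replicates. Nearest to the lower threshold from inside were TCONS_00028894 (highest adult value 0.473 FPKM, in adult heart), TCONS_00055409 (0.457 FPKM, in adult muscle), and TCONS_00041441 (0.443 FPKM, in adult heart). From outside they were TCONS_00041411 (0.506 FPKM, in adult heart), TCONS_00083277 (0.519 FPKM, in adult muscle), and TCONS_00031765 (0.521 FPKM, in adult muscle).

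To read the pattern in a sample that had no part in the choice, the rule was applied to 8 samples and the value was read in the ninth. Those that also passed in the ninth were always the same 30, since these met the rule in all 9 samples. The chosen transcripts had already passed in the other samples of the same tissue type. A share above that of all transcripts was thus likely beforehand, and it is given as a description without a test. On the samples other than embryonic heart replicate 0, 34 transcripts were chosen, and 30 of them (88.2%) were above 10 FPKM in that sample, where 4.79% of all transcripts were. For embryonic heart replicate 1 the count was 30 of 42 (71.4%, against 4.6% of all transcripts), and for embryonic heart replicate 2 it was 30 of 38 (78.9%, against 4.47%). In each of the 3 cases the lowest value in the held-back sample was 0. Among adult samples, the share below 0.5 FPKM in the held-back sample was lowest for adult muscle replicate 0, at 30 of 41 (73.2%, against 68.2% of all transcripts). It was 30 of 36 (83.3%, against 69.3%) for adult muscle replicate 2 and 30 of 33 (90.9%, against 68.9%) for adult muscle replicate 1. For adult heart replicate 0 it was 30 of 32 (93.75%, against 70.4%). It was 30 of 31 (96.8%, against 67.5%) for adult heart replicate 1 and 30 of 30 (100%, against 70.1%) for adult heart replicate 2. The adult muscle samples, mainly replicate 0, thus bounded the set more tightly than the adult heart samples did.

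The adult values of the 30 transcripts were of several kinds. Of their 180 adult values, 27 were exactly 0 and 81 were above 0 but below 0.001 FPKM, down to 2.49e-109 FPKM in adult heart and 2.63e-88 FPKM in adult muscle. Values this small are outputs of the estimate that divides fragments among overlapping transcripts, and not counted fragments. The rule, which bounds every adult value at 0.5 FPKM, favours values near 0, so that their share is not set against that of other transcripts. Of the rest, 27 lay between 0.001 and 0.1 FPKM and 45 above 0.1 FPKM. In adult heart, 12 of 90 values were at 0, 44 were above 0 and below 0.001 FPKM, and 18 were above 0.1 FPKM. In adult muscle the corresponding counts were 15, 37, and 27 of 90. For 9 transcripts every adult value was below 0.001 FPKM, and for 11 none was above 0.1 FPKM. No adult heart value was above 0.1 FPKM for 19 transcripts, and no adult muscle value for 12.

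The difference between adult heart and adult muscle was not used by the rule, which bounds both alike. It was tested with limma on log2(FPKM + 0.1). The error of the fit was estimated from all 9 samples, so the p-values also depend on the embryonic heart values that the rule used. Of the 30 transcripts, 1 passed an adjusted p of 0.05, against 22.3% of all transcripts tested (15426 of 69118). At an unadjusted p below 0.05 the numbers were 3 of 30, against 33.6% of all. Of the 30, 18 had no adult mean above 0.1 FPKM and so entered the test only through embryonic heart. The bound of 0.5 FPKM on every adult value also limits how large a difference these transcripts could show on this scale, so that the low count is not a comparison with other transcripts. The log2 fold changes of the 30 ran between -1.55 and 1.12, and 12 were positive. TCONS_00039569 and TCONS_00079790 were at exactly 0. Several others of either sign were nearly 0, such as 0.0053 for TCONS_00054921 and -0.00051 for TCONS_00041097. Their signs are not read as a direction.

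The transcript that passed was TCONS_00046712, which was lower in adult heart. It had 0.000654, 0.0394, and 0.0326 FPKM in adult heart, against 0.196, 0.209, and 0.410 FPKM in adult muscle, so that the tissue types did not overlap. Its log2 fold change was -1.55 with a standard error of 0.33 (limma, Benjamini-Hochberg adjusted p = 0.01004). In embryonic heart it had 19.2, 17.1, and 14.8 FPKM, more than 30 times its highest adult muscle value in each sample. TCONS_00028894 was the most positive (log2 fold change 1.12, limma adjusted p = 0.108), with 0.164, 0.235, and 0.473 FPKM in adult heart against 0.0371, 0.142, and 0.0489 FPKM in adult muscle. TCONS_00030805 had a log2 fold change of -1.19 (limma adjusted p = 0.120). Neither passed the test. With only the 6 adult samples in the fit, no restricted transcript passed (smallest limma adjusted p = 0.0549, with 1 transcript at an unadjusted p below 0.05). That fit was made and adjusted over all 103079 transcripts, without the filter on the mean. It thus differs from the main fit in more than the samples. With a pseudocount of 1, no restricted transcript passed either (smallest limma adjusted p = 0.209, with 0 transcripts at an unadjusted p below 0.05).

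The restricted transcripts varied more between embryonic heart samples than other transcripts that are high there. Their median coefficient of variation was 39.1% (quartiles 21.1% and 47.7%), against 14.7% for the 3616 transcripts above 10 FPKM in each embryonic heart sample (quartiles 9.004% and 23.4%). Of the 30, 15 were above 40%, against 7.47% of the 3616, and 7 were below 15%, against 51.5%. The 71 other transcripts whose highest adult value stayed below 2 FPKM had a median of 16.6%. Among transcripts with mirrored thresholds, the 21 restricted to adult heart had a median of 29.8% across adult heart samples, against 13.8% for the 4071 transcripts above 10 FPKM in each of them. The 224 restricted to adult muscle had 17.97%, against 13.2% for 4358. These are descriptions of 3 samples per tissue type, and the difference between sets was not tested. With the rule applied without a sample, the median of the restricted transcripts was 21.8% without embryonic heart replicate 0, 32.0% without replicate 1, 21.6% without replicate 2, and 23.7% without adult muscle replicate 0. The 3 medians without an embryonic heart sample rest on 2 values per transcript, over sets of 34, 42, and 38 transcripts. No such median was calculated for the 3616, so that they cannot be set against the 14.7% above.

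The spread had a direction. Embryonic heart replicate 0 was the highest sample for 23 of the 30 transcripts (76.7%), against 39.7% of the 3616, and it was the lowest for 1, TCONS_00077266. Replicate 1 was the highest for 2 and replicate 2 for 5. The lowest sample was replicate 1 for 15 and replicate 2 for 14. The ratio of replicate 0 to the mean of the other replicates had a median of 1.495, with a range between 0.660 (TCONS_00077266) and 3.79 (TCONS_00098579), against a median of 1.03 for the 3616. It was above 1.5 for 15 of the 30, against 9.21% of the 3616. Of the 30, 12 have close numbers and may share fragments, so these counts need not be of 30 separate observations. The differences from the 3616 were not tested. Summed over the 30 transcripts, the level was 5598, 3549, and 4081 FPKM in replicates 0, 1, and 2, and the median transcript was at 62.1, 41.8, and 34.8 FPKM. Of the 71 other transcripts with low adult values, 42 (59.2%) were highest in replicate 0. Estimated depth was lowest in replicate 0 among the embryonic heart samples (0.919, against 1.02 in replicate 1 and 1.16 in replicate 2), and its part in these differences was not tested.

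**Figure D3:**
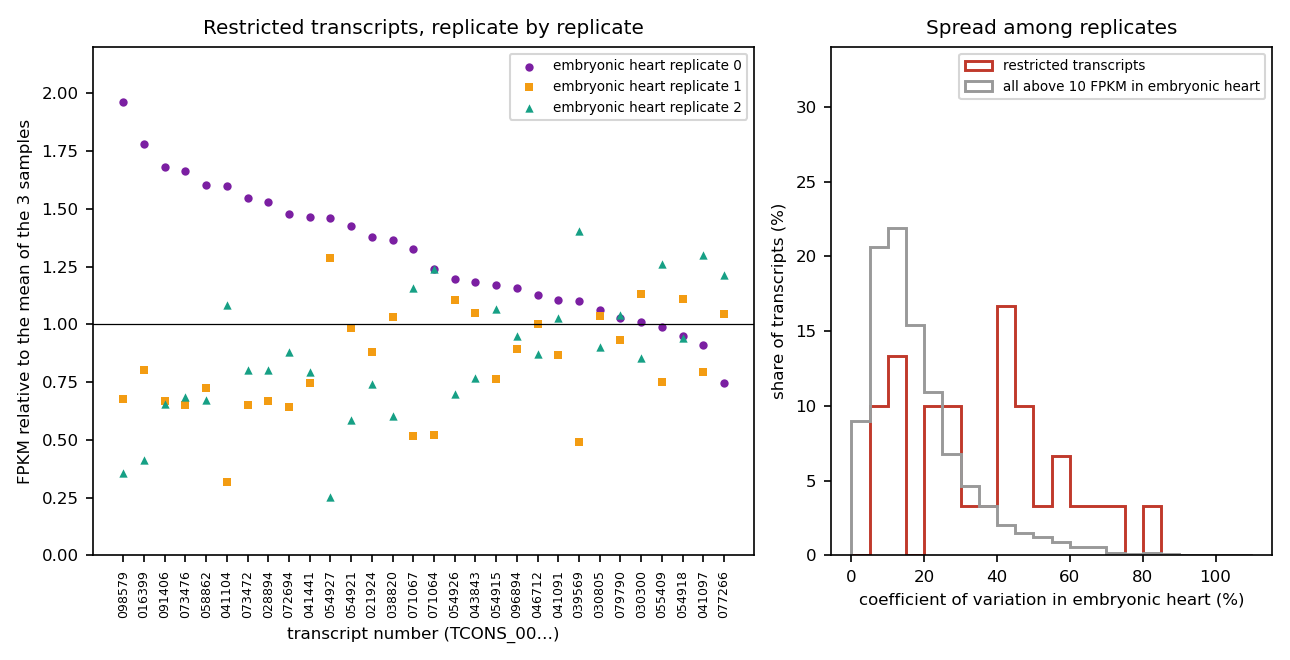
Left, FPKM of each restricted transcript in embryonic heart replicates 0 (circles), 1 (squares), and 2 (triangles) relative to the mean of the 3 samples, ordered by replicate 0. Right, share of transcripts (%) by coefficient of variation across the embryonic heart samples (%), for the 30 restricted transcripts (red) and all 3616 transcripts above 10 FPKM in each embryonic heart sample (grey). Replicate 0 is the highest for 23 of 30 transcripts, and the red distribution lies to the right of the grey.

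The share of summed FPKM held by the 30 transcripts was 0.125% in embryonic heart replicate 0, 0.0245% in replicate 1, and 0.0213% in replicate 2. The total over all transcripts moved in the other direction, at 4.49e+06 FPKM in replicate 0, 1.45e+07 FPKM in replicate 1, and 1.92e+07 FPKM in replicate 2, most of it from the 10 highest entries. The share thus differed more between the samples than the sum over the 30 transcripts did.

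The transcript numbers give an approximate place in the genome. Among the study's 813 lincRNAs, whose positions on the Zv9 assembly are listed by the study, each of the 66 chromosomes and scaffolds formed a single block of numbers, and the start position increased in 706 of 747 successive pairs. The start fell back at most 2 times on a chromosome or scaffold, so that neighbouring numbers usually, but not always, mean neighbouring positions. By the lincRNAs numbered just below and above them, 24 of the 30 transcripts fell in a single rising run of positions, on 11 chromosomes. There were 5 on chromosome 19, 5 on chromosome 21, 3 on chromosome 3, 3 on chromosome 16, 2 on chromosome 2, and 1 each on chromosomes 4, 7, 8, 12, 14, and 18. Counting also those between lincRNAs of 1 chromosome whose positions fell back, there were 27, with 5 on chromosome 3 and 2 on chromosome 8. The bracketing lincRNAs were between 73.1 and 20172 kb apart (median 8970 kb), and the exact position, exons, and strand of the transcripts are not part of the values. TCONS_00079790 was numbered between a lincRNA of chromosome 4 and a lincRNA of chromosome 5, and could not be placed on either.

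Most restricted transcripts had no other restricted transcript close by in number. TCONS_00054926 and TCONS_00054927 were the only pair of the 30 with successive numbers, and 9 had another of the 30 within 5 numbers. In all, 12 of the 30 fell into 4 short stretches in which they were fewer than 10 numbers apart, and 18 had no other of the 30 that close. Distant numbers can still mean near positions, since positions fall back within some chromosomes. TCONS_00028894 and TCONS_00030805, for example, had nearly the same bracket on chromosome 16 (23929854 to 27525314 and 24064638 to 27579216). The 18 are thus apart in number, but not necessarily in the genome. In none of the 4 stretches did any transcript between the outer restricted transcripts have an adult mean above 10 FPKM. For the restricted transcripts themselves the rule fixes this. Such levels are also uncommon. Of all 103079 transcripts, 4071 were above 10 FPKM in each adult heart sample and 4358 in each adult muscle sample. The absence is thus not read as a trait of the stretches.

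The largest stretch by members ran from TCONS_00054915 to TCONS_00054927, between lincRNAs of chromosome 21 that start at 32192843 and 43627598 (Zv9). It held 5 restricted transcripts among 13, and 7 of the 13 had an embryonic heart mean above 10 FPKM. The 5 were TCONS_00054915, TCONS_00054918, TCONS_00054921, TCONS_00054926, and TCONS_00054927, with embryonic heart means between 22.7 and 80.9 FPKM. The other 2 were higher than any of them. TCONS_00054920 averaged 136 ± 43.1 FPKM in embryonic heart, 0.405 ± 0.243 FPKM in adult heart, and 0.183 ± 0.276 FPKM in adult muscle (SD, n = 3 each). TCONS_00054922 averaged 108 ± 39.2 FPKM in embryonic heart, 0.741 ± 0.809 FPKM in adult heart, and 0.0891 ± 0.0890 FPKM in adult muscle. Both missed the set through adult values above 0.5 FPKM. Summed over the 13 transcripts, the level was 506 ± 154 FPKM in embryonic heart, 1.57 ± 0.851 FPKM in adult heart, and 0.546 ± 0.559 FPKM in adult muscle. The 5 transcripts chosen by the rule and these 2 made up nearly all of the embryonic heart sum, and the 6 others had an embryonic heart mean below 10 FPKM.

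The stretch from TCONS_00041091 to TCONS_00041104, between lincRNAs of chromosome 19 that start at 5585402 and 15459276, held 3 restricted transcripts among 14. TCONS_00041097 had 51.4, 44.7, and 73.2 FPKM and TCONS_00041104 had 59.95, 11.95, and 40.7 FPKM in embryonic heart, beside TCONS_00041091 above. Between them, TCONS_00041103 had 3.89, 8.52, and 24.1 FPKM in embryonic heart and a highest adult value of 0.109 FPKM, and so met the rule in only 1 of the embryonic heart samples. Replicate 0, the highest sample for TCONS_00041104, was the lowest for TCONS_00041103 beside it. The 14 transcripts summed to 180.4 ± 48.1 FPKM in embryonic heart, 0.158 ± 0.0744 FPKM in adult heart, and 1.10 ± 0.634 FPKM in adult muscle. The 3 restricted transcripts, chosen by the rule on these values, made up most of the embryonic heart sum.

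The 2 remaining stretches were on chromosome 3 and included far higher transcripts. The first ran from TCONS_00071064 to TCONS_00071067, between lincRNAs that start at 51024418 and 56347226. Its 4 transcripts summed to 963 ± 402 FPKM in embryonic heart, 0.396 ± 0.134 FPKM in adult heart, and 0.838 ± 0.611 FPKM in adult muscle. The 2 restricted transcripts among them, chosen by the rule on these values, made up most of the embryonic heart sum. TCONS_00071065, between the restricted pair, averaged 263 ± 124 FPKM in embryonic heart, 0.0157 ± 0.0270 FPKM in adult heart, and 0.591 ± 0.525 FPKM in adult muscle, and missed the set through adult muscle. The next number, TCONS_00071068, had 2359, 956, and 1451 FPKM in embryonic heart, against 0.950, 0.331, and 0.552 FPKM in adult heart and 0.740 FPKM at most in adult muscle. It was higher in every embryonic heart sample than either restricted transcript, and like them it was lowest in replicate 1.

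A few numbers below this pair the pattern was reversed. TCONS_00071060 averaged 1.32 ± 0.443 FPKM in embryonic heart, 4244 ± 1360.4 FPKM in adult heart, and 436 ± 91.6 FPKM in adult muscle, and TCONS_00071062 averaged 0.602 ± 0.257 FPKM in embryonic heart, 1675 ± 504 FPKM in adult heart, and 170.1 ± 38.6 FPKM in adult muscle. Transcripts nearly confined to embryonic heart among the 3 tissue types, and transcripts nearly absent from it, thus had numbers that differed by as little as 2. The rule fixes the high embryonic heart and low adult values of the restricted pair, but not the levels of these neighbours.

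A similar arrangement was found in the stretch from TCONS_00073472 to TCONS_00073476. It is numbered after a lincRNA that starts at 55577137 on chromosome 3 and before the point where positions start again. That lincRNA starts between those that bracket the other stretch on chromosome 3 (51024418 and 56347226). Both stretches may thus lie in the same region, and the arrangement need not be a separate instance. TCONS_00073474 had 5269, 2144, and 1989 FPKM in embryonic heart, against 4.51, 2.97, and 3.43 FPKM in adult heart and 1.56, 0.667, and 1.80 FPKM in adult muscle. TCONS_00073475 had 2494, 957, and 1350.1 FPKM in embryonic heart, against 0.430 FPKM at most in adult heart and 0.623 FPKM at most in adult muscle. Neither is among the 30, because of these low adult values, although both exceeded TCONS_00073472 and TCONS_00073476 in every embryonic heart sample. All 4 were highest in replicate 0. Just below them, TCONS_00073469 averaged 0.328 ± 0.164 FPKM in embryonic heart, 802 ± 221 FPKM in adult heart, and 88.2 ± 13.7 FPKM in adult muscle. Overlapping or nearly identical transcripts share fragments, and how far the estimates of neighbouring numbers depend on each other was not tested.

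**Figure D4:**
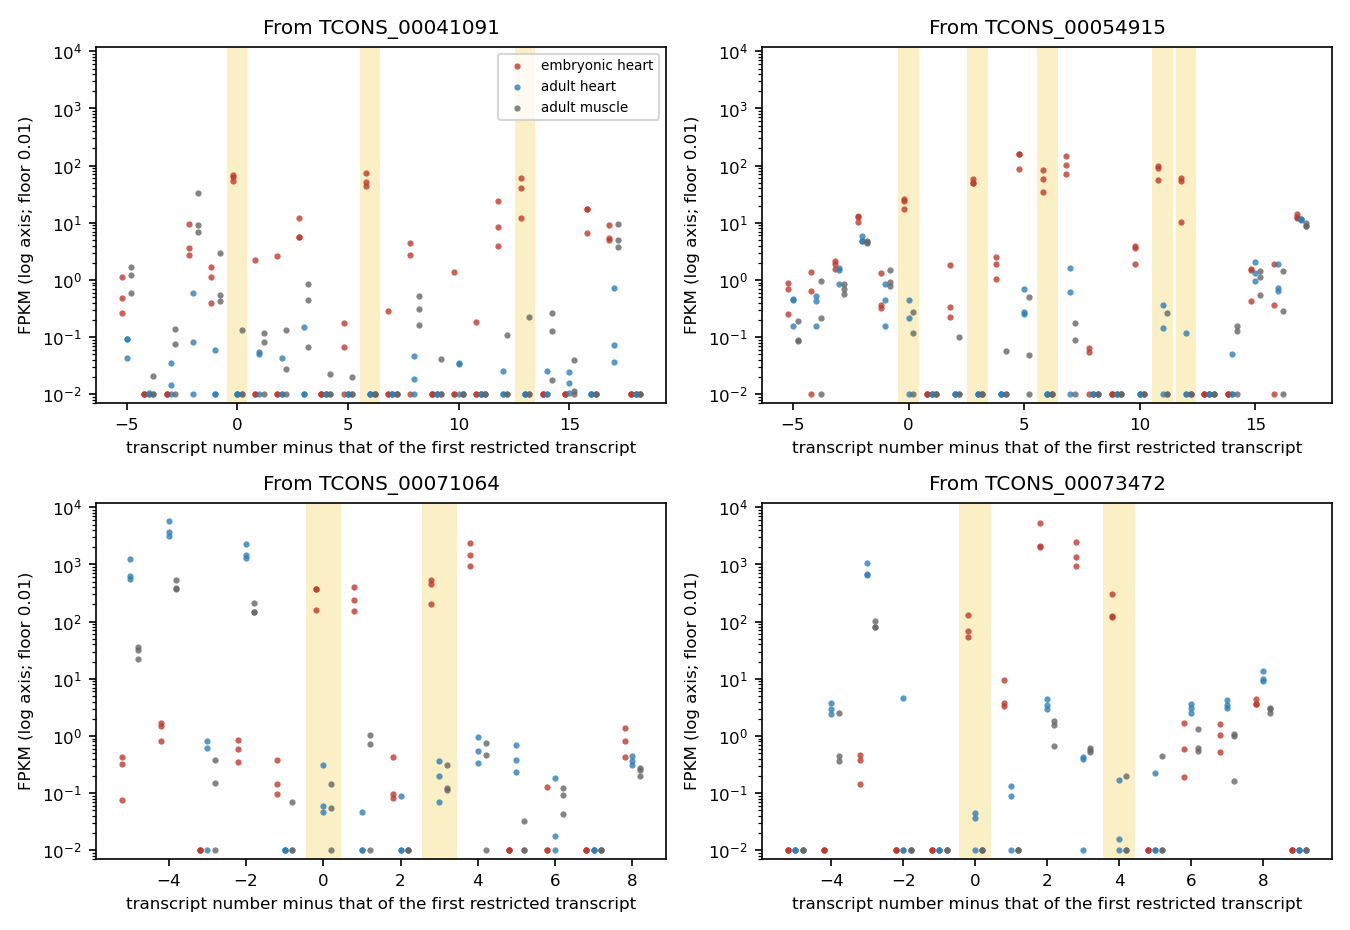
FPKM in each sample (vertical log axis, with values below 0.01 drawn at 0.01) of the transcripts numbered in and around the 4 stretches, against the difference in transcript number from the first restricted transcript. Red points are embryonic heart, blue points adult heart, grey points adult muscle, and yellow bands mark the 12 restricted transcripts. In the lower panels, which start at TCONS_00071064 and TCONS_00073472, transcripts high in adult heart lie a few numbers to the left of those high in embryonic heart.

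Most of the 30 transcripts had at least 1 neighbour in number above 10 FPKM in embryonic heart, although most single neighbours were below it. A neighbour within 5 numbers on either side, restricted or not, had an embryonic heart mean above 10 FPKM for 24 of the 30 (80.0%, against 59.7% of the 3616), and a neighbour had an adult mean above 10 FPKM for 22 (73.3%, against 66.4%). With all restricted transcripts left out, the neighbours summed to a higher level in embryonic heart than in either adult tissue type for 23 of the 30 (76.7%, against 36.4% of the 3616). The sum was more than 10 times higher in embryonic heart for 7 (23.3%, against 1.05%), and more than 10 times higher in an adult tissue type for 1 (3.33%, against 3.71%). Members of a stretch share neighbours, so that these counts are of fewer than 30 separate places. Several of the 7 belong to the stretch from TCONS_00054915 to TCONS_00054927, with TCONS_00054920 or TCONS_00054922 among their neighbours. The 30 transcripts had 244 different neighbours that were not restricted, of which 41 had an embryonic heart mean above 10 FPKM. Of the 41, 3 had every adult value below 0.5 FPKM and 11 had every adult value below 2 FPKM, whereas 20 had an adult mean above 10 FPKM.

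Where a restricted transcript stood among expressed neighbours, it was often a small part of the local sum. It held a median of 25.04% of the embryonic heart sum over itself and its neighbours within 5 numbers, against 54.6% for the 3616. This depended on the window. Within 2 numbers the median was 66.8%, against 77.5%, and 6 of the 30 held more than 90%, against 33.2% of the 3616. Within 5 numbers, TCONS_00016399 (87.5%), TCONS_00091406 (84.0%), and TCONS_00028894 (83.7%) were among those that held most of their local sum. TCONS_00079790 held the largest part, 99.0%, and was the only restricted transcript above 90% in that window. Its highest neighbour in embryonic heart, TCONS_00079786, was at 0, 0, and 30.9 FPKM in replicates 0, 1, and 2, and thus rested on replicate 2 alone. TCONS_00073472 (1.68%) and TCONS_00030805 (1.67%) lay at the other end. TCONS_00030805 was numbered near TCONS_00030810, which averaged 2114 ± 149 FPKM in embryonic heart, 1681 ± 583 FPKM in adult heart, and 1510 ± 170.1 FPKM in adult muscle.

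Single restricted transcripts were numbered beside transcripts of quite different patterns. TCONS_00016399, the second highest of the 30, lay 2 numbers from TCONS_00016401, which averaged 56.5 ± 17.6 FPKM in embryonic heart, 561 ± 152 FPKM in adult heart, and 60.9 ± 20.4 FPKM in adult muscle. The levels in embryonic heart and adult muscle overlapped there, and adult heart was the high tissue type. TCONS_00091406, with 86.1, 34.2, and 33.5 FPKM in embryonic heart and every adult value below 0.001 FPKM, followed TCONS_00091402, which averaged 0.272 ± 0.283 FPKM in embryonic heart, 0.0309 ± 0.0398 FPKM in adult heart, and 434 ± 24.4 FPKM in adult muscle. TCONS_00091404, between them, was likewise high in adult muscle alone among the 3 tissue types (0.426 ± 0.323 FPKM in embryonic heart, 0.143 ± 0.129 FPKM in adult heart, and 217 ± 15.99 FPKM in adult muscle). This was the case in which the neighbours summed to more than 10 times the embryonic heart level in an adult tissue type.

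TCONS_00043843, with 39.3, 34.8, and 25.5 FPKM in embryonic heart and 0 in all 3 adult heart samples, had 2 neighbours at higher levels in embryonic heart, both above the adult bound of 0.5 FPKM. TCONS_00043838 averaged 744 ± 68.4 FPKM in embryonic heart and 1.86 ± 0.983 FPKM in adult muscle and was listed at 0 in all 3 adult heart samples. TCONS_00043844 averaged 405 ± 68.9 FPKM in embryonic heart, 40.1 ± 13.5 FPKM in adult heart, and 1.72 ± 1.10 FPKM in adult muscle. TCONS_00043836, one of the transcripts just outside the upper threshold, belongs to the same run of numbers. TCONS_00077266 lay near TCONS_00077263, which averaged 50.2 ± 9.40 FPKM in embryonic heart, 1.26 ± 0.137 FPKM in adult heart, and 1.86 ± 0.551 FPKM in adult muscle, and was bracketed most closely of the 24 placed transcripts, by lincRNAs of chromosome 4 that start at 11865554 and 11938679.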

How the data were processed

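RNA-seq of 9 zebrafish samples, 3 per tissue type, was analysed. The authors aligned the reads with TopHat2 2.0.12 to Zv9, assembled transcripts with Cufflinks 2.2.1, and deposited an FPKM value per assembled transcript and sample, calculated with Cuffnorm. The scaling option is not given in the sources used here. The restricted transcripts and all lists were chosen with earlier results of these data known. Samples were grouped by their titles. Adult heart was compared with adult muscle by limma 3.58.1 (R 4.3.3) on log2(FPKM + 0.1) with an intensity trend, all 9 samples in the fit, two-sided, over the 69118 transcripts with a mean above 0.1 FPKM in a tissue type, with Benjamini-Hochberg adjustment. The fit was tested on simulated data in which only transcripts with higher adult levels than the restricted ones were changed. That test thus does not cover the restricted transcripts. Because fold changes are on the log2(FPKM + 0.1) scale, they understate changes of low transcripts. Fragment counts are unknown, and relative depth was estimated from steps in the low values. Named transcripts were the 10 highest in embryonic heart, the 3 most and the 3 least variable there, the 3 on each side of each threshold, those called, and runs of 3 or more successive numbers, of which there were none. Neighbours, other restricted transcripts, the 2 FPKM bound, and the 5-number window were singled out after their values were seen. Alternatives were other thresholds, scalings, pseudocounts, filters, fits, and leaving out each sample. Python 3.11.15, numpy 2.4.6, pandas 2.3.3, and matplotlib 3.10.9 were used. Cuffdiff comparisons need the reads and were not repeated.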

Additional observations from a re-analysis of the deposited data

How the results depend on the processing

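The number of restricted transcripts depended mainly on the thresholds. It was 60 with an upper threshold of 5 FPKM, 11 with a lower threshold of 0.1 FPKM, 54 with a lower threshold of 1 FPKM, and 131 with thresholds on the means of tissue types, against 30. An upper threshold of 20 FPKM gave 20, median-ratio rescaling 31, quantile normalization 37, and keeping lincRNAs 31. Restricted transcripts near another numbered 9 within 5 numbers, against 2 with successive numbers. The count called between adult heart and adult muscle was 1, also with a pseudocount of 0.01, other filters, no trend, or either rescaling. It was 0 with a pseudocount of 1, with an adjusted p below 0.01, and with only the adult samples in the fit. At an unadjusted p below 0.05 by limma, these settings gave 0, 3, and 1. The fit of only the adult samples was adjusted over all 103079 transcripts.

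Leaving out each sample in turn, the number of transcripts ranged between 30 and 42, their median embryonic heart mean between 34.6 and 51.9 FPKM, and their mean share of summed FPKM between 0.0274% and 0.148%, against 0.0568%. The number at 0 in all adult samples ranged between 2 and 6, the median coefficient of variation between 21.6% and 40.2%, the number with successive numbers between 2 and 4, and the number called between 1 and 2. The largest set (42) and the largest share (0.148%) came without embryonic heart replicate 1, and the smallest share (0.0274%) without embryonic heart replicate 0. The number at 0 in all adult samples was 4 without embryonic heart replicate 0, 6 without replicate 1, and 4 without replicate 2. The number with successive numbers was 4 without embryonic heart replicate 1 or adult muscle replicate 1. The median coefficient of variation was 21.8% without embryonic heart replicate 0, 21.6% without embryonic heart replicate 2, and 23.7% without adult muscle replicate 0. Without adult muscle replicate 0 the median embryonic heart mean was 34.6 FPKM and 2 transcripts were called. With 2 samples left in a tissue type, a coefficient of variation rests on 2 values. The deviations of adult heart and adult muscle samples with equal replicate numbers correlated at 0.0715, -0.0161, and -0.00721 across transcripts. Those of samples with unequal numbers correlated between -0.0603 and 0.0684. With 3 samples per tissue type, these values cannot show whether samples with equal numbers came from the same fish. With the number as a replicate block, 1 restricted transcript was called (smallest limma adjusted p = 0.0268). Transcript lengths and fragment counts are unknown, so that no counting interval could be given for any value.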
